A study of Mus musculus with 4 samples.

Results

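B lineage cells made up 203 of 28598 CD45+ cells from mouse spinal cord in experimental autoimmune encephalomyelitis (EAE), in which the immune system attacks myelin. They were selected on measured values, cell by cell, from raw counts of unique molecular identifiers (UMIs, which count captured RNA molecules). A member had at least 3 UMIs of Cd79a, no UMI of the T cell gene Cd3e, fewer than 3 of the plasmacytoid dendritic cell gene Siglech and fewer than 10 of the myeloid gene Lyz2. Barcodes entered with 500 or more UMIs, 200 or more detected genes and no more than 10% of UMIs from mitochondrial genes. The members were thus chosen by the level of Cd79a, which encodes a signalling chain of the B cell receptor, and Cd79a, Cd3e, Siglech and Lyz2 are given no test here.

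All mice were C57BL/6 and had been immunised for EAE. The Reg1-MO group received Reg1-MOs and the control group received Ctrl MO. Both were given intracranially on day 9 of the disease course, counted from immunisation. Cells were collected on day 16, after collagenase D digestion, a Percoll step and sorting for CD45, and there were 2 libraries per group. The labels spell out neither MO nor Reg1, give no target site, and do not say whether a library came from 1 mouse or several, so the p-values measure only the spread between libraries, which may be technical. The name Reg1 is taken to mean Regnase-1, which degrades mRNAs of inflammation and is the product of Zc3h12a.

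B cells arise in the bone marrow, where precursors rearrange their antibody genes with the recombinase encoded by Rag1 and carry a surrogate light chain made from Vpreb1 and Igll1. Vpreb3 is transcribed in precursors and stays on in newly formed B cells, Ms4a1 encodes CD20 of mature B cells, and Jchain links antibody subunits and is strongly transcribed in antibody-secreting cells. Mature B cells present peptides to CD4 T cells on major histocompatibility complex (MHC) class II molecules, and they lose most class II expression when they become antibody-secreting cells.

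Class II genes share a compact promoter arrangement in which the Y box, an inverted CCAAT element, lies a short distance upstream of the start. The promoters below are shown because the classical and accessory class II genes are the antigen presentation genes whose levels are described here, and because the same 6 letters recur in them. They are RefSeq sequences of build GRCm38.p6, read 5′ to 3′ on the strand of the gene, and each covers the 100 bases before the annotated start. Capitals mark GATTGG or its reverse complement.
H2-Aa: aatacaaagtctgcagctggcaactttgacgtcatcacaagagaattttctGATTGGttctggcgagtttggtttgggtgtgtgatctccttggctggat
H2-Eb1: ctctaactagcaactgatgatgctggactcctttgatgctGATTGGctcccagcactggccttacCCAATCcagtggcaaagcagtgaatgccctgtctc
H2-DMb1: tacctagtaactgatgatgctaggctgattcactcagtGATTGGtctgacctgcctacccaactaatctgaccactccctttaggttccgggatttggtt
H2-DMb2: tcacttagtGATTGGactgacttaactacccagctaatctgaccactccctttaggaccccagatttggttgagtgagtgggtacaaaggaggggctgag
H2-Ob: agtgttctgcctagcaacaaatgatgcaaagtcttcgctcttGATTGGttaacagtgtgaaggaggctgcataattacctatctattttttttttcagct

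These stretches lie at chr17:34287824-34287923 (minus strand, H2-Aa), chr17:34305767-34305866 (plus, H2-Eb1), chr17:34153091-34153190 (plus, H2-DMb1), chr17:34145149-34145248 (plus, H2-DMb2) and chr17:34238805-34238904 (plus, H2-Ob). The letters GATTGG, searched on both strands from 250 bases before to 50 after the start, were present in all 8 class II genes that had a promoter entry, which also included H2-Eb2, H2-DMa and H2-Oa. They began 49 bases before the start in H2-Aa, 60 in H2-Eb1, 62 in H2-DMb1, 91 in H2-DMb2 and 58 in H2-Ob. Of all 32851 RefSeq promoters of this length, 16.1% held them. H2-Ab1, Cd74 and Ciita were not matched. A match is a description of sequence and not a measurement of binding.

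The 4 libraries held 75472324 to 174552218 UMIs, and between 1.64% and 4.26% of a library's barcodes failed the filters. Any pair of libraries shared between 10 and 75 cell barcodes, and no barcode of a B lineage cell was shared. Zc3h12a was measured first. Its normalised level, with counts summed over the B lineage cells of a library and scaled to 1e+06 UMIs (CPM, TMM-normalised), was 37.6 and 39.1 in the Reg1-MO libraries, against 94.1 and 41.2 in the control libraries. Both Reg1-MO values lay just below the lower control and far below the higher one. The log2 fold change of Zc3h12a was -0.83 ± 0.51 (SE), with an adjusted p of 0.724 (edgeR, quasi-likelihood test, n = 2 libraries per group), so a change was not detectable at this depth. Without antibody-secreting (Jchain-high) and precursor cells, Zc3h12a had 45.8 and 86 CPM with Reg1-MOs, against 111 and 55.1 CPM in the controls, and the groups overlapped (log2 fold change -0.44 ± 0.46, edgeR adjusted p of 0.735). In sums of this kind, fewer cells that transcribe a gene and less RNA per cell cannot be told apart.

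The members were checked against B lineage markers that the rule did not use. Ms4a1 had a UMI in 31 of 33 and 22 of 28 Reg1-MO cells, against 65 of 76 and 57 of 66 control cells. In cells with at least 2% of UMIs from the neutrophil genes S100a8 and S100a9, which should lack Ms4a1, it had a UMI in 0.528% and 0.18% of Reg1-MO cells and in 0.125% and 0.255% of control cells. The median depth of those cells was 5783 and 6802 UMIs with Reg1-MOs and 7214 and 7278 UMIs in the controls. Ebf1, a transcription factor of the B lineage, had a UMI in 33 of 33 and 26 of 28 Reg1-MO members and in 75 of 76 and 63 of 66 control members. Pax5, which maintains B cell identity, was seen in 28 and 23 Reg1-MO members and in 65 and 53 control members. The label of the population as B lineage thus matched its markers.

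Few cells stood at the edge of the rule. Exactly 3 Cd79a UMIs were found in 0 and 2 members of the Reg1-MO libraries and in 2 and 2 members of the control libraries, and each of these 6 cells also had a UMI of Ms4a1 or Cd79b. Just outside, 1 and 0 Reg1-MO cells and 1 and 4 control cells had exactly 2 Cd79a UMIs and met the other conditions. The exclusion genes removed 13 and 6 cells with at least 3 Cd79a UMIs from the Reg1-MO libraries, against 18 and 20 from the control libraries. Median Cd79a was 11 and 14.5 UMIs per Reg1-MO member, against 10 and 10.5 UMIs per control member.

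B lineage cells were a smaller share of the CD45+ cells in both Reg1-MO libraries than in either control library. They were 33 of 8715 and 28 of 5170 cells in the Reg1-MO libraries, which is 0.379% (95% Wilson interval 0.27% to 0.531%) and 0.542% (0.375% to 0.782%). In the control libraries they were 76 of 8081 and 66 of 6632 cells, which is 0.94% (0.752% to 1.18%) and 0.995% (0.783% to 1.26%). The groups did not overlap, and the higher Reg1-MO library stayed below the lower control. The mean share was 0.46% ± 0.115 with Reg1-MOs and 0.968% ± 0.0387 in the controls (SD, n = 2 each), a difference of -0.508 percentage points with a two-sided exact permutation p of 0.33, the smallest that 2 against 2 libraries allow. These intervals cover counting error only.

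The share is a share of sorted cells and moves with the other cells in the denominator. Neutrophil-rich cells numbered 568 and 1113 in the Reg1-MO libraries, against 2394 and 2741 in the control libraries. With them left out of the denominator, the share was 0.405% and 0.69% with Reg1-MOs and 1.34% and 1.7% in the controls, which is a wider gap. Cells with at least 3 Mpo UMIs and at least 1 Elane UMI, a pair of genes of marrow granulocyte precursors, were also fewer with Reg1-MOs, at 34 and 33 cells (0.39% and 0.638%), against 203 and 142 control cells (2.51% and 2.14%). Whether marrow content contributed to the B lineage share was not tested. Fewer B lineage cells and more of the other cells cannot be told apart from shares.

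**Figure D1:**
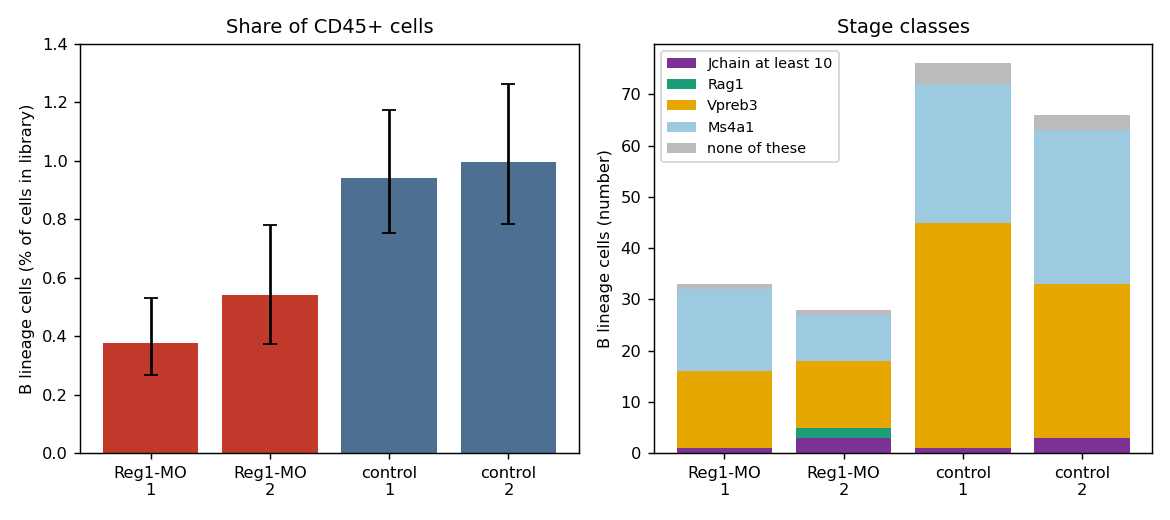
B lineage cells per library. Left, their share of the cells of each library in percent, as bars with 95% Wilson intervals; the Reg1-MO bars stand at 0.379% and 0.542% and the control bars at 0.94% and 0.995%. Right, the number of B lineage cells in each stage class, stacked; the Rag1 class appears only in Reg1-MO 2, with 2 cells.

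B lineage cells also differed in depth between the groups. The median was 5652 and 6630 UMIs per cell with Reg1-MOs, against 4313 and 4244 in the controls, and the median mitochondrial share was 4.21% and 4.24%, against 3.85% and 3.85%. All other cells had medians of 12132 and 11051 UMIs with Reg1-MOs and 10339 and 10044 in the controls. Depth therefore moved with the group in the B lineage, and its part in single shares of cells with a UMI was examined by thinning every cell to 2000 UMIs.

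Stages were assigned in a fixed order, from at least 10 UMIs of Jchain, to any UMI of Rag1, then of Vpreb3, then of Ms4a1. Nearly all members fell in the Vpreb3 and Ms4a1 classes. The Vpreb3 class held 15 and 13 Reg1-MO cells (45.5% and 46.4% of the members of each library) and 44 and 30 control cells (57.9% and 45.5%). The Ms4a1 class held 16 and 9 Reg1-MO cells (48.5% and 32.1%) and 27 and 30 control cells (35.5% and 45.5%). The groups overlapped or touched in both classes, and the two-sided exact permutation p was 1 for each. No stage gene was detected in 1 and 1 Reg1-MO cells and in 4 and 3 control cells.

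Vpreb3 is transcribed at a low level in these cells, so the border between the Vpreb3 and Ms4a1 classes is a range. The Vpreb3 class had medians of 4785 and 5602 UMIs with Reg1-MOs and 4236 and 4414.5 UMIs in the controls. In the Ms4a1 class the medians were 7376 and 6778 UMIs with Reg1-MOs and 4533 and 4161 UMIs in the controls. The part of depth in this border was not tested. Ms4a1 was also seen in 90 of the 102 cells of the Vpreb3 class. Ighd, the heavy chain constant gene of IgD on naive mature B cells, had a UMI in 82 of those 102 cells and in 59 of the 82 cells of the Ms4a1 class. Cr2, the complement receptor CD21, was found in 38 cells of the Vpreb3 class and in 20 of the Ms4a1 class, and Fcer2a, which encodes CD23, in 23 cells of each. After thinning to 2000 UMIs, Vpreb3 was seen in 33.3% and 35.7% of Reg1-MO members, against 36% and 33.3% of control members, where it had been seen in 45.5% and 60.7%, against 59.2% and 48.5%, before thinning.

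The Jchain-high class held 1 and 3 Reg1-MO cells (3.03% and 10.7%) and 1 and 3 control cells (1.32% and 4.55%), with an exact permutation p of 0.667. Cells that met the other conditions and had at least 10 Jchain UMIs but fewer than 3 of Cd79a numbered 0 and 0 in the Reg1-MO libraries and 3 and 4 in the controls, so the Cd79a threshold left out such cells in the control libraries alone. In 7 of the 8 cells the Jchain count was far above the threshold, between 105 and 1553 UMIs. The remaining cell, the only one of Reg1-MO 1, sat exactly at 10 UMIs and carried 10 UMIs of Ms4a1 and 256 of Cd74, unlike the others. The 7 cells with high Jchain had at most 1 Ms4a1 UMI and at most 3 H2-Aa UMIs, and their Igkc counts, for the kappa light chain, ran between 2731 and 28673 UMIs. Xbp1, the transcription factor that expands the secretory machinery, had between 20 and 59 UMIs in each of them, while it was found in 13 of the 82 cells of the Ms4a1 class. Prdm1, which encodes Blimp-1, was detected in 6 of the 8 cells, against 3 of 82.

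Most of these antibody-secreting cells transcribed Igha, the constant gene of IgA. In Reg1-MO 2 the leading heavy chain was Ighm in 1 cell, with 2504 UMIs, and Igha in 2 cells, with 3064 and 7216 UMIs. The Jchain-high cell of control 1 had 3625 Igha UMIs. In control 2 the leading gene was Igha in 2 cells, with 997 and 5143 UMIs, and Ighg3 in 1 cell, with 6143 UMIs. Igha thus led in 5 of the 7 cells, in both groups, and with so few cells no comparison between groups was possible. The doublet caller marked 0 and 3 members in the Reg1-MO libraries and 3 and 3 in the controls, and all 3 marked cells of Reg1-MO 2 and 2 of the 3 of control 2 were Jchain-high cells. The difference in the Jchain-high share was 3.94 percentage points with all members, 0.037 with doublets removed and 0.0997 without Reg1-MO 2.

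Precursor cells were seen in a single library. A UMI of Rag1, Vpreb1, Igll1 or Dntt, the last encoding the polymerase that adds bases at antibody gene joints, was found in 4 members, all of Reg1-MO 2. They held 14526, 23698, 24315 and 62144 UMIs, where the median of that library's members was 6630. Their Vpreb3 counts were 22, 51, 54 and 55, and they had 2 to 26 UMIs of Mki67, a gene of dividing cells. None had a UMI of Ms4a1, and Cd74 was at most 5 UMIs. The strict Rag1 class held 2 of them, or 7.14% of the members of Reg1-MO 2 (Wilson interval 1.98% to 22.6%). It held 0 of 33 members in Reg1-MO 1, with a Wilson upper limit of 10.4%. In the controls it held 0 of 76 and 0 of 66 members, with Wilson upper limits of 4.81% and 5.5%. The difference in this class had an exact permutation p of 1, and since it rests on Reg1-MO 2, it is not a difference between the groups.

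The stage genes were also summed per library. Jchain had 70.5 and 13271 CPM with Reg1-MOs, against 3063 and 5611 CPM in the controls, and Vpreb3 had 146 and 746 CPM with Reg1-MOs, against 176 and 226 CPM in the controls. Ms4a1 had 649 and 391 CPM with Reg1-MOs, against 434 and 388 CPM in the controls. The log2 fold changes were 0.62 ± 1.46 for Jchain, 1.17 ± 0.65 for Vpreb3 and 0.33 ± 0.34 for Ms4a1, with edgeR adjusted p of 0.93, 0.697 and 0.824, and Rag1 did not pass the filter on low counts. Without Jchain-high and precursor cells Vpreb3 had 177 and 289 CPM with Reg1-MOs, against 199 and 252 CPM in the controls, and the groups overlapped. In the same cells Ms4a1 had 732 and 922 CPM with Reg1-MOs, against 512 and 520 CPM in the controls. There both Reg1-MO libraries of Ms4a1 were above both controls, with a log2 fold change of 0.68 ± 0.23 that did not pass (edgeR adjusted p of 0.231).

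**Figure D2:**
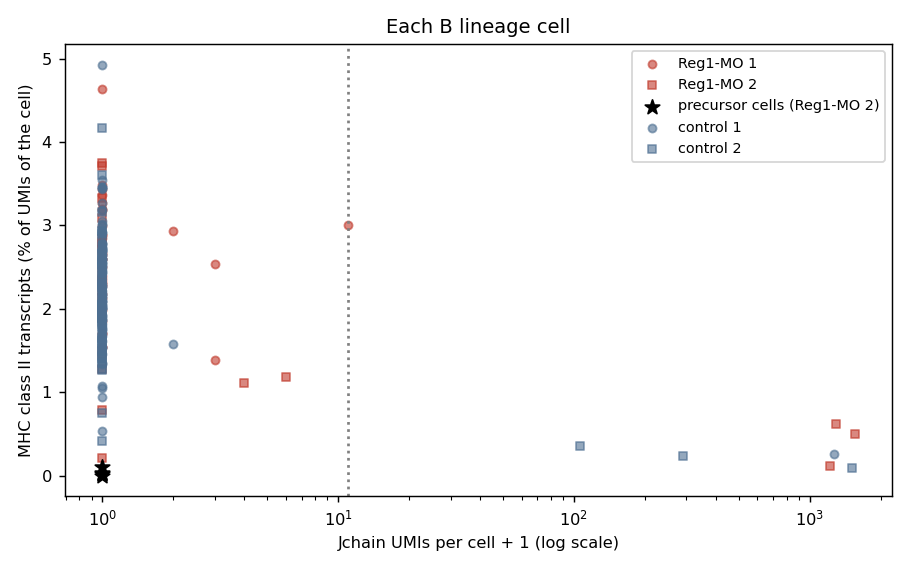
Each point is 1 of the 203 B lineage cells, with its Jchain UMIs plus 1 on a log axis and the share of its UMIs from the 11 MHC class II genes, in percent, on the vertical axis. Red marks Reg1-MO and blue control libraries, circles replicate 1 and squares replicate 2, stars the 4 precursor cells of Reg1-MO 2, and the dotted line the threshold of 10 UMIs. The 7 cells at the far right and the precursor cells lie at the bottom, at no more than 0.622%.

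Most members, 134 of 203, could not be given an antibody class, and 63 were assigned to IgM. A heavy chain was assigned where its constant gene had at least 10 UMIs and at least 5 times the next. Secreting cells included, Ighm led in 14 and 12 Reg1-MO cells, against 19 and 18 control cells, and 18 and 15 Reg1-MO cells, against 56 and 45 control cells, stayed unassigned. The unassigned share was larger in the controls. Their cells were shallower, and the part of depth in this share was not tested. Lambda light chain cells were 2 and 2 with Reg1-MOs (6.06% and 7.14%), against 4 and 1 in the controls (5.26% and 1.52%), with an exact permutation p of 0.33.

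MHC class II transcripts took the smallest shares in precursor cells and in cells with high Jchain. In the 7 cells with at least 30 Jchain UMIs the 11 listed class II genes took 0.0927% to 0.622% of the UMIs of a cell, and in the 4 precursor cells 0% to 0.105%. The cell of Reg1-MO 1 at the threshold of 10 Jchain UMIs had 2.998%. In the remaining 191 members the share ran between 0.207% and 4.93%, with a median of 2.24%, so that their lowest values overlapped those of the cells with high Jchain. Within those, the Vpreb3 class had library medians of 2.66% and 2.22% with Reg1-MOs and 2.52% and 2.16% in the controls. The Ms4a1 class had medians of 2.25% and 2.05% with Reg1-MOs and 2.04% and 1.96% in the controls. The ranges of the Vpreb3 and Ms4a1 classes overlapped, and the median of the Vpreb3 class was above that of the Ms4a1 class in each of the 4 libraries. Classes were cut from the same counts, so this is given without a test.

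Over all B lineage cells, class II levels did not separate the treatments. H2-Aa, the alpha chain of the classical I-A molecule, had 4113 and 1470 normalised CPM in the Reg1-MO libraries, against 3169 and 2629 in the control libraries. Cd74, the invariant chain that occupies the groove until peptide is loaded, had 13957 and 6836 CPM with Reg1-MOs, against 12572 and 10743 in the controls. H2-Eb1, the beta chain of I-E, had 3079 and 1275 CPM, against 2421 and 2038 in the controls. In each case Reg1-MO 1 was the highest library and Reg1-MO 2 the lowest, so the controls lay between them. The log2 fold changes were -0.06 ± 0.46 for H2-Aa, -0.17 ± 0.37 for Cd74 and -0.04 ± 0.42 for H2-Eb1 (SE), with edgeR adjusted p of 0.984, 0.923 and 0.991.

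H2-DMa, a subunit of the DM molecule that exchanges peptides, had 522 and 176 CPM with Reg1-MOs, against 287 and 271 CPM in the controls, and its partner H2-DMb2 had 747 and 313 CPM with Reg1-MOs, against 485 and 447 CPM in the controls. H2-Oa and H2-Ob encode the DO molecule, which restrains DM in B cells. H2-Oa had 301 and 101 CPM with Reg1-MOs, against 210 and 147 CPM in the controls, and H2-Ob had 320 and 173 CPM with Reg1-MOs, against 285 and 185 CPM in the controls. Ciita, the master regulator of class II transcription, had 268 and 78.2 CPM with Reg1-MOs, against 157 and 88.2 CPM in the controls. In these 5 genes Reg1-MO 1 was again the highest library and Reg1-MO 2 the lowest. H2-DMb1 did not follow that order, with 108 and 52.2 CPM with Reg1-MOs, against 164 and 91.2 CPM in the controls, so that control 1 was highest. None of the 6 genes passed the test, with adjusted p between 0.741 and 0.982 (edgeR).

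Of the 11 class II genes 6 lay above and 5 below 0, with a median log2 fold change of 0.05, beside 0.01 over all 5185 genes tested. None was called, where 0% of all tested genes were called, and none had groups that did not overlap, beside 39% of all tested genes. The median moved with the library left out: it was -0.84 without Reg1-MO 1, 0.54 without Reg1-MO 2, 0.23 without control 1 and -0.15 without control 2.

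The sums of the low library, Reg1-MO 2, held 3 antibody-secreting and 4 precursor cells, each with at least 14526 UMIs. Its remaining members had a median of 5602 UMIs. Class II took 0.116% to 0.622% of the UMIs of the 3 secreting cells, which had 34 to 141 Cd74 UMIs each. In the precursor cells it took at most 0.105%. Control 2 also held 3 Jchain-high cells, with 32370 to 48156 UMIs. The part of these cells in the levels of a library was not tested. Leaving out all Jchain-high and precursor cells, an alternative chosen after these values had been seen, left 32 and 21 Reg1-MO cells and 75 and 63 control cells. H2-Aa then had 4667 and 3463 CPM with Reg1-MOs, against 3733 and 3508 CPM in the controls. Cd74 had 15517 and 14197 CPM with Reg1-MOs, against 14666 and 13464 CPM in the controls. For H2-Aa the gap between the Reg1-MO libraries narrowed, and the levels of Cd74 lay within a narrow range in all 4 libraries. The log2 fold changes were 0.17 ± 0.17 for H2-Aa and 0.08 ± 0.13 for Cd74, with edgeR adjusted p of 0.731 and 0.842.

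In these 191 cells 10 of the 11 class II genes lay above 0 and none was called, with a median of 0.29 beside 0.0077 over 4089 genes tested. Groups did not overlap for 5 of the 11, near the background of 45.8%. The exception was H2-DMb1, a near copy of H2-DMb2 in sequence, with 97.2 and 102 CPM with Reg1-MOs, against 193 and 122 CPM in the controls (log2 fold change -0.69 ± 0.34, adjusted p of 0.391). Reads can be split between these copies, so the values of both are uncertain. Together the 11 genes took 2.43% and 2.23% of the summed UMIs with Reg1-MOs, against 2.31% and 2.1% in the controls, and the two-sided exact permutation p was 0.667.

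**Figure D3:**
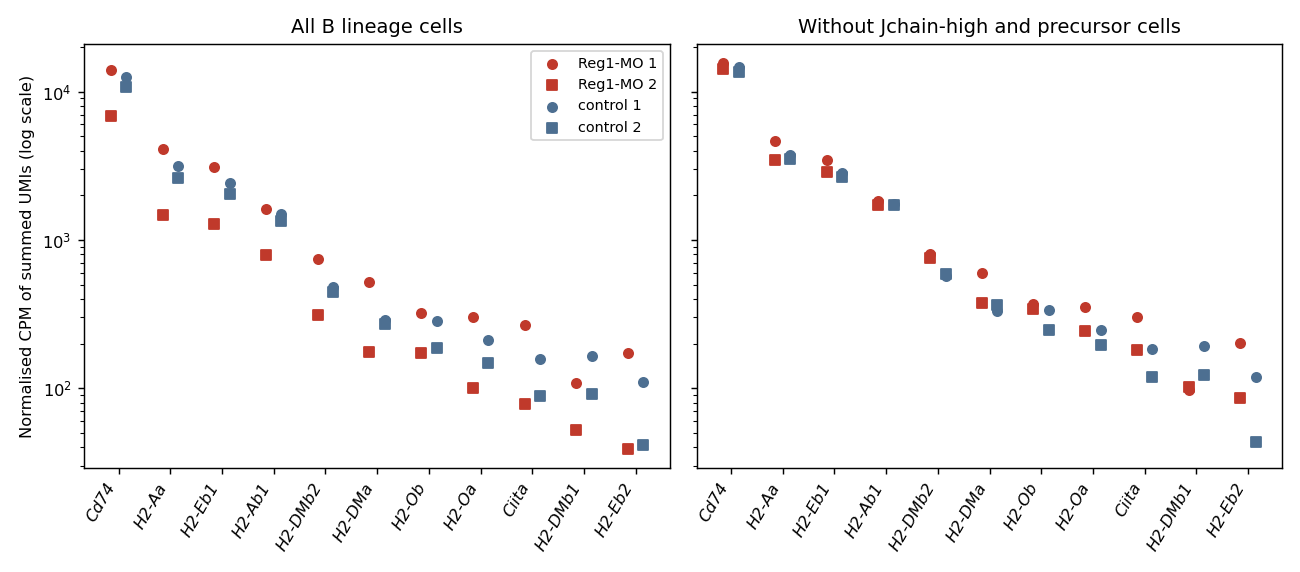
Normalised CPM (log axis) of the 11 MHC class II genes in UMIs summed per library, Reg1-MO in red left of control in blue, circles replicate 1 and squares replicate 2. Left, all B lineage cells, where Reg1-MO 2 is the lowest library for most genes (H2-Aa at 1470); right, without Jchain-high and precursor cells, where H2-Aa in Reg1-MO 2 stands at 3463.

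The treatment difference in class II was set against that of all other CD45+ cells in a model with the library as a block, which has 2 residual degrees of freedom. In that fit over all members, Cd74 had 14020 and 6867 CPM in Reg1-MO and 12569 and 10505 CPM in control B lineage cells, and 12296 and 7796 CPM in Reg1-MO and 6023 and 4719 CPM in control other cells. Other cells, as a sum, were higher with Reg1-MOs in both libraries, and B lineage cells were not. The other cells are a mixture, in which neutrophil-rich cells numbered 568 and 1113 with Reg1-MOs, against 2394 and 2741 in the controls. The part of this make-up in the Cd74 level of the other cells was not tested. The log2 difference between the treatment effects of Cd74 was -1.10 ± 0.18, and it missed the threshold with an edgeR adjusted p of 0.344. No gene of 5185 was called (0%), 356 had an unadjusted p under 0.05, and with RLE scaling none was called either. In the set without Jchain-high and precursor cells, the log2 difference for Cd74 was -0.81 ± 0.19, with an adjusted p of 0.148, and 3 of 4089 genes (0.0734%) were called.

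Across the transcriptome of all B lineage cells, edgeR called no gene of 5185 between Reg1-MO and control, although 382 had an unadjusted p under 0.05. DESeq2 also called none, with 122 at that level. The count rested on single libraries: it was 643 without Reg1-MO 1, 14 without Reg1-MO 2, 30 without control 1 and 0 without control 2. Genes with the smallest p are given as values. Ifi27l2a, an interferon-induced gene, had 291 and 228 CPM with Reg1-MOs, against 69.9 and 55.9 CPM in the controls. Gbp2, an interferon-induced GTPase of host defence, had 202 and 199 CPM with Reg1-MOs, against 41 and 8.82 CPM in the controls. Plscr1, a phospholipid scramblase also induced by interferon, had 75.2 and 71.7 CPM with Reg1-MOs, against 19.3 and 14.7 CPM in the controls. For all 3 genes both Reg1-MO libraries lay above both controls, with log2 fold changes of 2.03 ± 0.34, 2.94 ± 0.56 and 2.07 ± 0.45 and edgeR adjusted p of 0.457, 0.458 and 0.667. Gbp2 and Plscr1 had only a few UMIs in control 2.

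Cacybp and Lmnb1, which encodes lamin B1 of the nuclear lamina, completed the 5 genes on the higher side. Cacybp had 160 and 205 CPM with Reg1-MOs, against 45.8 and 38.2 CPM in the controls, and Lmnb1 had 282 and 323 CPM with Reg1-MOs, against 91.6 and 88.2 CPM in the controls. On the lower side, Chil3, a secreted lectin of neutrophils and macrophages, had 14.1 and 6.52 CPM with Reg1-MOs, against 113 and 132 CPM in the controls. Lgals3, which encodes the myeloid lectin galectin-3, had 9.4 and 6.52 CPM with Reg1-MOs, against 65.1 and 67.6 CPM in the controls. The Reg1-MO values of Chil3 and Lgals3 rest on a few UMIs. Chil3 is not a B cell gene, and in the other cells of the same libraries it stood at 1427 and 1334 CPM with Reg1-MOs and at 7142 and 12109 CPM in the controls. Lgals3 in the other cells stood at 1574 and 931 CPM with Reg1-MOs and at 1627 and 1666 CPM in the controls.

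Fkbp5, a chaperone gene induced by glucocorticoids, had 84.6 and 48.9 CPM with Reg1-MOs, against 285 and 268 CPM in the controls. Plk2, a polo-like kinase, had 18.8 and 9.78 CPM with Reg1-MOs, against 111 and 79.4 CPM in the controls, and H1f0, a linker histone, had 9.4 and 6.52 CPM, against 137 and 61.8 CPM in the controls. In all 3 the groups were apart, with log2 fold changes of -2.07 ± 0.37, -2.78 ± 0.51 and -3.64 ± 0.67, and each had an edgeR adjusted p of 0.457. Plk2 and H1f0 had only a few UMIs in each Reg1-MO library, so the size of their fold changes is uncertain.

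In the 191 cells left after Jchain-high and precursor cells were set aside, 16 of 4089 genes were called (0.391%), 9 higher with Reg1-MOs (0.22%) and 7 lower (0.171%), with 561 at an unadjusted p under 0.05. This fit was made after the values of all members were known. The count of called genes moved with the library left out. DESeq2 called 24 of the 1128 genes to which it gave an adjusted p. Ifi27l2a, at chr12:103442167-103443680, again led the higher genes, with 343 and 485 CPM with Reg1-MOs, against 76.8 and 66.9 CPM in the controls. Its log2 fold change was 2.49 ± 0.30, with an edgeR adjusted p of 0.00477, and both Reg1-MO libraries were above both controls. In the other cells of the libraries Ifi27l2a stood at 1156 and 1104 CPM with Reg1-MOs and at 714 and 269 CPM in the controls.

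After each cell had been thinned to 2000 UMIs, Ifi27l2a had a UMI in 40.6% and 61.9% of these B lineage cells with Reg1-MOs, against 9.46% and 14.3% in the controls, and in 65.6% and 76.2%, against 22.7% and 19%, before thinning. In the B lineage, 1 control cell and no Reg1-MO cell was too shallow and was left out. In the neutrophil-rich cells of the same libraries Ifi27l2a had a UMI in 35.5% and 28.6% of thinned Reg1-MO cells, against 20.8% and 9.88% of thinned control cells, with 39 and 64 Reg1-MO cells and 160 and 141 control cells left out as too shallow. The gap between the groups in B lineage cells was thus present at matched depth. In both Reg1-MO libraries the thinned share in B lineage cells exceeded that in neutrophil-rich cells. Among the controls it was lower in 1 library, at 9.46% against 20.8%, and higher in the other, at 14.3% against 9.88%. The part of RNA from other cells in this result was not tested.

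Cd52, which encodes a short glycoprotein anchored on lymphocytes, had 3592 and 2830 CPM with Reg1-MOs, against 1471 and 1098 CPM in the controls. Its log2 fold change was 1.32 ± 0.20 with an adjusted p of 0.017 (edgeR). Actg1, the gene for cytoplasmic gamma actin, had 2048 and 1798 CPM with Reg1-MOs, against 979 and 827 CPM in the controls, and Tagln2, an actin-binding protein, had 337 and 453 CPM, against 134 and 55.1 CPM in the controls. Gimap4, a GTPase of lymphocytes, had 486 and 297 CPM with Reg1-MOs, against 137 and 98.4 CPM in the controls. Groups were apart for each of these genes, and Actg1, Tagln2 and Gimap4 had log2 fold changes of 1.09 ± 0.20, 1.99 ± 0.35 and 1.73 ± 0.31 and an adjusted p of 0.0279 each (edgeR).

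Plscr1 (91.5 and 164 CPM with Reg1-MOs, against 22.8 and 15.7 CPM in the controls), Lmnb1 (326 and 266 CPM, against 108 and 66.9 CPM in the controls) and Rilpl2 (252 and 297 CPM, against 85.4 and 86.6 CPM in the controls) were also called higher. The ninth was Ly6d, a surface marker of B cell commitment named here after its values were seen, with 1910 and 1814 CPM with Reg1-MOs, against 967 and 795 CPM in the controls. Plscr1 had a UMI in 10 of 32 and 5 of 21 Reg1-MO cells, against only 5 of 75 and 4 of 63 control cells. Without control 2, which was the lower control for Actg1, Cd52, Gimap4, Lmnb1 and Tagln2, these 5 genes no longer passed the threshold, with log2 fold changes of 0.93, 1.08, 1.48, 1.41 and 1.499. Without Reg1-MO 2, Plscr1 no longer passed, at 2.22, nor did it with doublets removed, at 2.64. Of the 15 called genes other than Ly6d, 9 stayed called with DESeq2. Rilpl2 did not, at 1.66 with a DESeq2 adjusted p of 0.0611, and the rest had no adjusted p there. With every cell thinned to 2000 UMIs, Lmnb1 and Rilpl2 did not pass, nor did Arhgap31, Maml3, Neurl3 and Plk2 among the lower genes described next. The direction of each stayed as it was. After thinning, 7 of the 15 called genes other than Ly6d still passed, and those in neither group did not reach the filter on low counts.

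On the lower side, Maml3, a coactivator of Notch receptors, had 91.5 and 54.7 CPM with Reg1-MOs, against 307 and 374 CPM in the controls, a log2 fold change of -2.16 ± 0.33 with an adjusted p of 0.017 (edgeR). Neurl3, a ubiquitin ligase, had 103 and 46.9 CPM with Reg1-MOs, against 273 and 339 CPM in the controls. Arhgap31, a GTPase-activating protein for Rac and Cdc42, had 45.8 and 23.5 CPM, against 211 and 157 CPM in the controls. In these genes the higher Reg1-MO library was below the lower control, and Neurl3 and Arhgap31 had log2 fold changes of -1.95 ± 0.35 and -2.35 ± 0.41 with an adjusted p of 0.0279 each (edgeR). Arhgap31 had only a few UMIs in Reg1-MO 2, so the size of its fold change is uncertain.

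Fkbp5 had 103 and 39.1 CPM with Reg1-MOs, against 336 and 311 CPM in the controls, and Plk2 had 22.9 and 15.6 CPM with Reg1-MOs, against 131 and 106 CPM in the controls. Prim2, a subunit of DNA primase, had 45.8 and 46.9 CPM, against 162 and 181 CPM in the controls. The log2 fold changes were -2.10 ± 0.36 for Fkbp5, -2.56 ± 0.48 for Plk2 and -1.87 ± 0.36 for Prim2, with edgeR adjusted p of 0.0279, 0.0279 and 0.0391. A gene can pass the filter on low counts through the higher group alone. Plk2 had only a few UMIs in each Reg1-MO library, so the size of its fold change is uncertain. Fkbp5 was also lower with Reg1-MOs in the other cells, at 119 and 85.1 CPM, against 223 and 321 CPM in the controls. The treatment difference of Fkbp5 between B lineage and other cells did not pass the test, with an adjusted p of 0.471.

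Chil3, at chr3:106147554-106167564, completed the 7 lower genes, with 17.2 and 7.82 CPM with Reg1-MOs, against 128 and 165 CPM in the controls (log2 fold change -3.41 ± 0.52, edgeR adjusted p of 0.017). It has a close copy, Chil4, so its counts are uncertain. Before thinning, Chil3 had a UMI in only 3 of 32 and 1 of 21 Reg1-MO cells, against 26 of 75 and 31 of 63 control cells. In thinned neutrophil-rich cells Chil3 had a UMI in 57.5% and 50.8% of Reg1-MO cells, against 88% and 98.5% of control cells. In thinned B lineage cells it had one in 9.38% and 0% with Reg1-MOs, against 23% and 28.6% in the controls. The part of RNA from myeloid cells in this result was not tested.

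**Figure D4:**
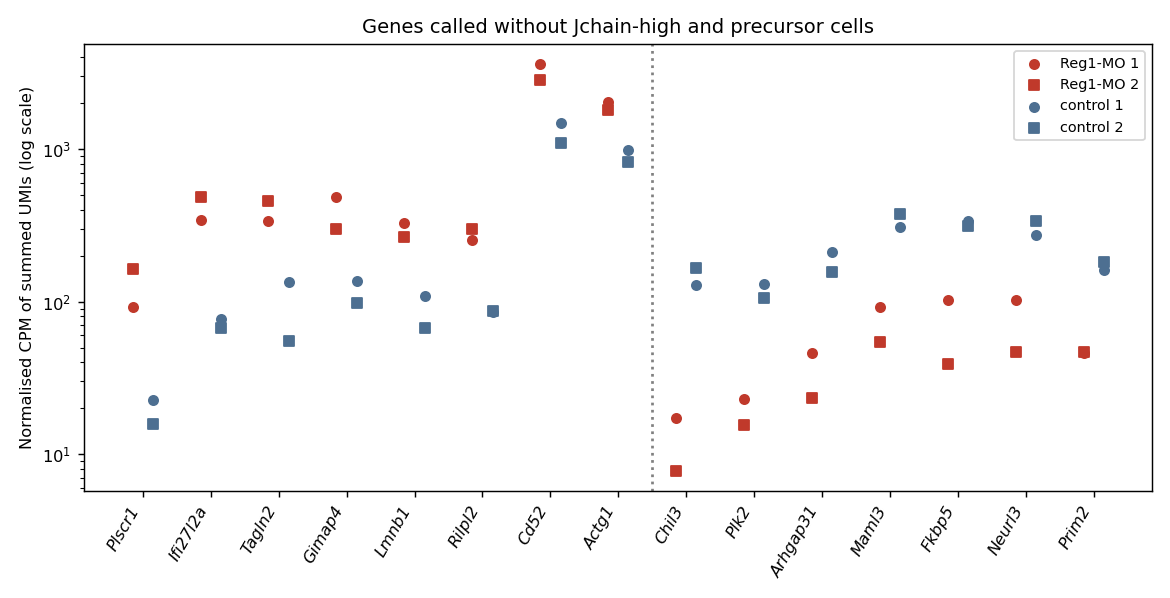
Normalised CPM (log axis) per library of 15 genes called in B lineage cells without Jchain-high and precursor cells, Reg1-MO in red left of control in blue, circles replicate 1 and squares replicate 2. The 8 genes left of the dotted line are higher with Reg1-MOs, such as Ifi27l2a at 343 and 485, against 76.8 and 66.9, and the 7 on the right are lower.

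Interferon-response genes were described by lists drawn up with earlier results of these data known. Of the 14 interferon-gamma genes 10 were tested over all members and all 10 lay above 0. Their median was 0.75 on the log2 scale, beside 0.01 over all genes, and none was called. Groups did not overlap for 6 of the 10, beside the background of 39%. In the set without Jchain-high and precursor cells 8 were tested, 8 lay above 0, the median was 1.14 and none was called. There, Psmb9, a subunit of the immunoproteasome, had 349 and 297 CPM with Reg1-MOs, against 154 and 106 CPM in the controls (log2 fold change 1.30 ± 0.28, edgeR adjusted p of 0.0674). Psmb8, its partner subunit, had 578 and 539 CPM with Reg1-MOs, against 433 and 276 CPM in the controls (0.65 ± 0.27, adjusted p of 0.313).

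For the type I interferon list, 4 of 15 genes were tested in the 191 cells, 3 above 0, and 1 was called, Ifi27l2a, where 0.391% of all tested genes were called in that fit. Gbp2 is shown as an example of a promoter of this kind, with capitals marking GAAA, any 2 bases and GAAA again (here on the opposite strand), the core of interferon-stimulated response elements.
Gbp2: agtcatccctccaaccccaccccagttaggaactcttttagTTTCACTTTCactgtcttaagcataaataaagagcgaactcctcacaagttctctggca
This stretch is chr3:142620563-142620662 on the plus strand of GRCm38.p6 (RefSeq). On either strand of the 250 bases before to 50 after the start, the letters were in the promoters of 7 of 11 matched interferon-gamma genes and of 7 of 11 matched type I genes, against 3.44% of all 32851 promoters. Ifi27l2a was not matched to a promoter. A match describes sequence only.

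Genes of the B cell receptor lay on both sides of 0. Of 14 listed genes 13 were tested over all members, 5 above and 8 below 0, with a median of -0.16 and none called, and in the 191 cells 6 lay above and 7 below, with a median of -0.03. Bank1, an adaptor of the receptor, had 3014 and 2713 CPM with Reg1-MOs, against 2919 and 2941 CPM in the controls, in the set without Jchain-high and precursor cells, and Lyn, a receptor-proximal kinase, had 1744 and 1743 CPM, against 1810 and 1854 CPM in the controls. Syk, the kinase that binds the phosphorylated receptor, had 583 and 766 CPM with Reg1-MOs, against 1232 and 1177 CPM in the controls. Both Reg1-MO values of Syk were below both controls, with a log2 fold change of -0.84 ± 0.22 that did not pass (edgeR adjusted p of 0.117).

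Antibody light chain genes lay above 0 in the same set. All 4 listed constant genes were above 0, with a median of 0.74 and no call. Igkc had 11245 and 10061 CPM with Reg1-MOs, against 6121 and 7224 CPM in the controls (log2 fold change 0.68 ± 0.14, edgeR adjusted p of 0.0584). Iglc2 and Iglc3 are lambda constant genes close in sequence to each other, so their values are uncertain. Iglc2 had 795 and 1329 CPM with Reg1-MOs, against 672 and 579 CPM in the controls, and Iglc3 had 543 and 633 CPM with Reg1-MOs, against 273 and 445 CPM in the controls. Over all members, secreting cells included, Igkc had 10690 and 126682 CPM with Reg1-MOs, against 30127 and 139734 CPM in the controls.

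Transcription factors of the lineage lay on both sides of 0. In the 191 cells 5 of 10 lay above 0 and 5 below, with a median of 0.04 and no call. Ebf1 had 3111 and 2869 CPM with Reg1-MOs, against 3372 and 4106 CPM in the controls, and Bach2, which restrains differentiation into secreting cells, had 1779 and 2205 CPM with Reg1-MOs, against 1633 and 1331 CPM in the controls. Their log2 fold changes were -0.32 ± 0.17 and 0.42 ± 0.20 with edgeR adjusted p of 0.421 and 0.369. Receptors and factors of B cell survival were above 0 in 7 of 7 tested genes, with a median of 0.36 and no call. Over all members 3 of them lay above 0 and 5 below, of 8 tested, with a median of -0.22 and no call. In the 191 cells Mcl1, an inhibitor of apoptosis, had 332 and 539 CPM with Reg1-MOs, against 387 and 342 CPM in the controls.

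Cell cycle genes differed by which cells were summed. Over all members 14 of 14 tested genes lay above 0, with a median of 1.53 and no call, and Hmgb2, a chromatin protein of dividing cells, had 174 and 1480 CPM with Reg1-MOs, against 101 and 476 CPM in the controls. Reg1-MO 2, which held the precursor cells with Mki67 UMIs, was the highest library. Control 2 held a Jchain-high cell, with 290 Jchain UMIs, that had 20 Mki67 UMIs. In the set without Jchain-high and precursor cells 4 genes were tested, 3 above 0, with a median of 0.50. The part of either kind of cell was not tested. Hmgb2 then had 206 and 109 CPM with Reg1-MOs, against 105 and 146 CPM in the controls, and the groups overlapped.

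Glycolysis genes lay above 0 in 10 of 12 tested genes in the 191 cells, with a median of 0.57 and no call. Gapdh had 715 and 860 CPM with Reg1-MOs, against 447 and 299 CPM in the controls (log2 fold change 1.06 ± 0.26, edgeR adjusted p of 0.0999). Immediate early genes, which rise with handling of cells as well as with receptor signals, lay below 0 in 9 of 10, with a median of -0.13 and no call, and Junb had 1012 and 1055 CPM with Reg1-MOs, against 1369 and 1094 CPM in the controls. Groups did not overlap for 9 of 12 and 4 of 10 of these genes, beside 45.8% of all tested genes.

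Markers of other cell types were summed in the members. Neutrophil markers, 11 genes summed, made up 170 and 1070 CPM in Reg1-MO B lineage cells, against 1082 and 1393 CPM in control ones, and 8174 and 46415 CPM, against 53030 and 84828 CPM, in the other cells. Macrophage and monocyte markers made up 1498 and 332 CPM with Reg1-MOs, against 948 and 1131 CPM in the controls, and T cell markers 13.8 and 23.1 CPM, against 134 and 30.6 CPM in the controls. Conventional dendritic cell markers, led by Ccr7, a chemokine receptor that B cells also carry, were higher in the members than in other cells in 3 of the 4 libraries. They made up 216 and 159 CPM in Reg1-MO members and 314 and 222 CPM in control members, and 135 and 161 CPM in Reg1-MO and 65.8 and 55.3 CPM in control other cells. Plasmacytoid dendritic cell markers, led by Tcf4, which B cells also transcribe, made up 478 and 438 CPM in Reg1-MO members and 504 and 250 CPM in control members, and 852 and 765 CPM in Reg1-MO and 500.2 and 326 CPM in control other cells. Cd3e was 0 by the rule. Of the 11 neutrophil genes, 5 and 1 had no UMI in Reg1-MO members, against 1 and 0 in control members. For the 11 macrophage and monocyte genes these counts were 2 and 4, against 0 and 4, and for the 9 T cell genes 8 and 3, against 2 and 4. Among 7 natural killer cell genes they were 4 and 7, against 4 and 0. Among 7 microglia genes they were 4 and 3, against 5 and 6, and among 11 marrow myeloid and erythroid genes 8 and 7, against 7 and 6. The 6 tested neutrophil genes were below 0 over all members, with a median of -1.35, and their part in other differences was not tested.

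**Figure D5:**
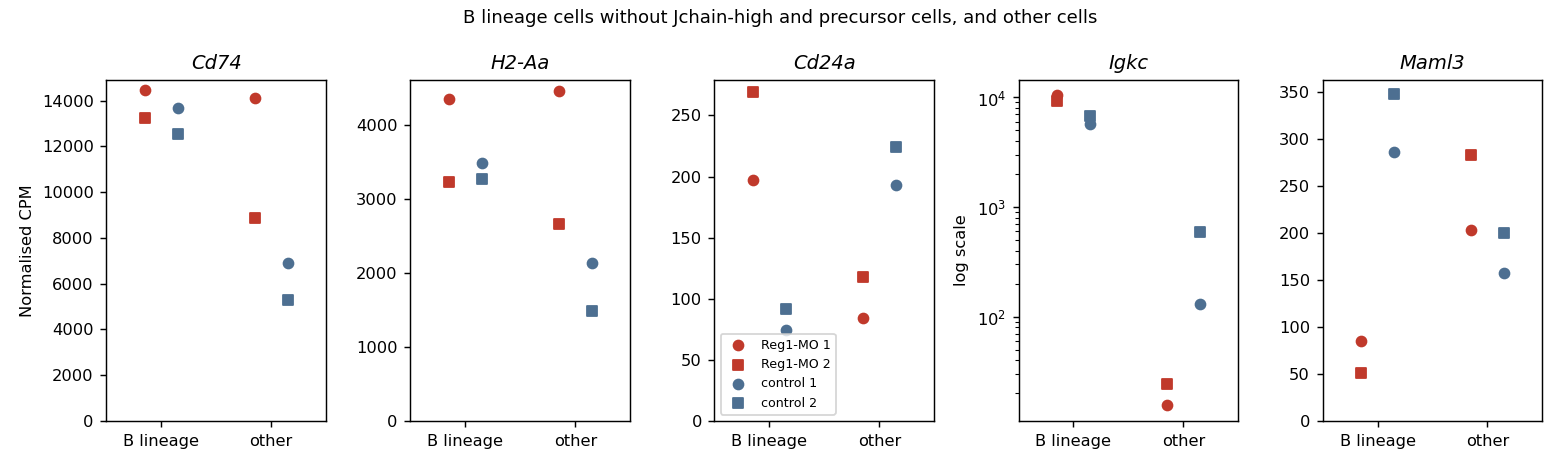
Normalised CPM per library of 5 genes in B lineage cells without Jchain-high and precursor cells and in all other CD45+ cells, Reg1-MO in red left of control in blue, circles replicate 1 and squares replicate 2; the axis of Igkc is a log axis and the others are linear from 0. Cd74 and H2-Aa are nearly level in B lineage cells, while Cd24a, Igkc and Maml3 differ in opposite directions in the 2 cell classes.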

How the data were processed

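UMI counts per gene and cell were deposited by the authors and are whole numbers with no normalization; Cell Ranger 5.0.1 made them, per the file headers, and the build mm10 and Seurat 4.0 are named in the submitters' processing notes. Libraries were 3′ 10x libraries, per the labels' protocols. The 29379 barcodes and 32285 genes of 4 libraries were read with Python 3.11.15, and the filters named in the report left 28598 cells. Members, gene lists and tests were chosen with earlier results of these data known.

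Counts of the members were summed per library, and genes passing filterByExpr (minimum count 10) were scaled by TMM and tested with edgeR 4.0.16 (quasi-likelihood F test, Benjamini-Hochberg adjusted p under 0.05) in R 4.3.3. CPM values are TMM-normalised. The contrast between B lineage and other cells was an interaction in a fit with library as a block. DESeq2 1.42.0, RLE scaling, no filter, a replicate block, other thresholds, thinning and leaving out each library were alternatives. Doublets were marked with Scrublet in scanpy 1.11.5 and kept, except in 1 alternative. Shares have Wilson 95% intervals, and single values exact permutation tests with scipy 1.17.1. Named were all class II and stage genes, Zc3h12a, up to 8 called genes per direction by fold change at a mean of at least 20 CPM without overlap, otherwise the 5 of smallest p, and per list called members or the 3 of highest mean.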

Additional observations from a re-analysis of the deposited data

Results flagged for a closer look

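The treatment difference was compared between B lineage cells without Jchain-high and precursor cells and all other CD45+ cells by a test of the difference itself (edgeR, library as a block, 2 residual degrees of freedom), and 3 genes passed, in a set of cells chosen after values had been seen. For Cd24a, which encodes a surface glycoprotein of immature B cells and neutrophils, the B lineage had 197 and 270 CPM with Reg1-MOs and 74.2 and 91.7 CPM in the controls, while other cells had 84.5 and 118 CPM with Reg1-MOs and 193 and 224 CPM in the controls. The log2 difference between the effects was 2.54 ± 0.28, with an adjusted p of 0.0206 (edgeR). Neutrophil-rich cells among the other cells numbered 568 and 1113 with Reg1-MOs, against 2394 and 2741 in the controls. Their part in the Cd24a level of the other cells was not tested.

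For Igkc, the B lineage had 10477 and 9374 CPM with Reg1-MOs and 5703 and 6731 CPM in the controls, while other cells had 15.5 and 24.1 CPM with Reg1-MOs and 131 and 591 CPM in the controls. The log2 difference was 4.53 ± 0.54, with an adjusted p of 0.0206 (edgeR). Cells outside the members with at least 10 Jchain UMIs numbered 1 and 0 in the Reg1-MO libraries, against 7 and 4 in the control libraries, and their part in the Igkc level of the other cells was not tested.

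For Maml3, the B lineage had 85.3 and 51 CPM with Reg1-MOs and 286 and 348 CPM in the controls, while other cells had 203 and 283 CPM with Reg1-MOs and 158 and 201 CPM in the controls. The log2 difference was -2.58 ± 0.35, with an adjusted p of 0.0434 (edgeR). Over all members none of these 3 genes passed.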

How the results depend on the processing

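With 28 to 76 members per library, counting error and single cells limit each value, and with 2 libraries per group no exact permutation test can pass 0.05. The lower share of B lineage cells kept its direction under each alternative run, between -0.41 and -0.969 percentage points, and between -0.426 and -0.589 with a library left out. The difference in the Vpreb3 class ran between -12.0 and 0.487 points with a library left out. That in the Ms4a1 class was 2.79 with doublets removed, 1.34 with Jchain at least 30, 1.37 after thinning, and -8.35 to 7.99 with a library left out. That in cells with no stage gene was 0.213 with Cd79a at least 6. The cause of each change was not tested.

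Over all members the 0 calls became 128 with no filter, 6 in the Ms4a1 class, 1 after thinning, 16 without Jchain-high and precursor cells, and 0 to 643 with a library left out. Without those cells the 16 calls became 130 with no filter, 26 with immunoglobulin genes left out and 26 to 167 with a library left out, where a lone library is assumed to vary like the others. Genes whose treatment effect differed between B lineage and other cells numbered 3 without those cells and 0 to 86 with a library left out. Replicate numbers are only numbers here, and with 2 pairs they cannot show a pairing: with the replicate block 39 genes were called over all members and 0 without Jchain-high and precursor cells, and Jchain was at -1.75.

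Over all members the class II median ran between -0.84 and 0.54 with a library left out. Log2 fold changes that turned direction in the Ms4a1 class were 0.13 for Cd74, 0.22 for H2-Aa, 0.055 for H2-Ab1, 0.38 for H2-Eb1 and -0.028 for H2-Ob. After thinning they were 0.0058 for Cd74, 0.10 for H2-Aa and 0.15 for H2-Eb1. Without Jchain-high and precursor cells they were 0.079 for Cd74, 0.17 for H2-Aa, 0.043 for H2-Ab1 and 0.20 for H2-Eb1, and without Jchain-high cells alone -0.049 for H2-Ob. Jchain was at -5.43 with doublets removed. With a library left out the ranges were -0.80 to 0.29 for Cd74, -0.69 to 1.14 for Ciita, -1.01 to 0.54 for H2-Aa, -0.89 to 0.21 for H2-Ab1, -0.69 to 0.94 for H2-DMa, -0.61 to 0.71 for H2-DMb2, -0.84 to 0.50 for H2-Eb1, -1.02 to 1.32 for H2-Eb2, -0.86 to 0.78 for H2-Oa, -0.48 to 0.47 for H2-Ob, -5.89 to 1.59 for Jchain, -0.10 to 0.69 for Ms4a1 and -0.42 to 1.86 for Vpreb3.

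Without Jchain-high and precursor cells, H2-Ab1 was at -0.023 and Vpreb3 at -0.065 with doublets removed, and Vpreb3 at -0.0042 with no filter. With a library left out the ranges were -0.031 to 0.17 for Cd74, -0.065 to 0.39 for H2-Aa, -0.019 to 0.12 for H2-Ab1, -0.31 to 0.37 for Vpreb3 and -0.87 to 0.18 for Zc3h12a.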

Other observations

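Genes of other B cell states were described by the same lists in the cells without Jchain-high and precursor cells, and none of the genes given here passed the test (edgeR). Over all members 4 of 11 tested activation and costimulation genes lay above 0 and 7 below, with a median log2 fold change of -0.12. In the cells without Jchain-high and precursor cells 9 of 11 lay above 0, and the median was 0.22. Cd86, a ligand of CD28 on T cells, had 904 and 805 CPM with Reg1-MOs, against 876 and 740 CPM in the controls, with a log2 fold change of 0.08 ± 0.22 and an adjusted p of 0.919. Cd80, the other ligand of CD28, had 91.5 and 70.4 CPM with Reg1-MOs, against 22.8 and 15.7 CPM in the controls, with a log2 fold change of 2.03 ± 0.53 and an adjusted p of 0.116. Bcl6, the repressor that directs germinal centre B cells, had 51.5 and 46.9 CPM with Reg1-MOs, against 122 and 157 CPM in the controls, with a log2 fold change of -1.47 ± 0.38 and an adjusted p of 0.107.

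Ighm, the IgM heavy chain gene, had 2528 and 2979 CPM with Reg1-MOs, against 1818 and 2394 CPM in the controls, with a log2 fold change of 0.39 ± 0.19 and an adjusted p of 0.387 (edgeR). Of 7 tested reported Regnase-1 targets 2 lay above 0 and 5 below, with a median of -0.04, and over all members 1 lay above and 6 below, with a median of -0.23. Genes of NF-kB feedback lay above 0 in 6 of 13, with a median of -0.04, and chemokine receptor and egress genes in 3 of 8, with a median of -0.14. Mature B cell genes lay above 0 in 5 of 12, with a median of -0.11.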
